A study of Mus musculus with 8 samples.

Results

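Kinesins are a family of microtubule motors, and many of their symbols in mouse begin with Kif. This account follows the members found by a symbol rule while mouse embryonic stem cells were differentiated for 10 days. Kinesins with other symbols, such as the Kifc motors, lie outside the rule and appear only among partner genes. The members were taken by symbol: a protein-coding gene of the GENCODE M21 annotation whose symbol is Kif followed by a digit. The rule found 39 genes of the 32780 in the deposited tables, of which 21860 are protein-coding. Of these 39, 38 encode proteins of the kinesin family, defined by its motor domain, and are called motors here whether or not the domain is active. The remaining gene, Kif1bp, encodes a protein that binds KIF1 motors and is counted apart. The motors were sorted by textbook role into 12 mitotic kinesins, 13 cargo-transport kinesins, 6 kinesins of cilia and 7 others.

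The series studied cohesin during differentiation, and the libraries used here are its total RNA sequencing. All 8 libraries came from wild-type TC1 cells, a mouse embryonic stem cell line. The 4 day 0 libraries were labelled as control embryonic stem cells and the 4 day 10 libraries as differentiated cells. The labels do not name the differentiation protocol, and nothing in them says that the replicates of a day were grown apart. The p-values then reflect only how much these replicates vary, which could be technical variation. The labels give no batch or date, so batch and day cannot be told apart.

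Kinesins convert the energy of ATP hydrolysis into steps along microtubules, or into removal of tubulin from microtubule ends. Mitotic kinesins build the spindle, move chromosomes and complete cytokinesis, and many of them are transcribed mainly late in the cell cycle. Transport kinesins carry vesicles, organelles and ciliary cargo, and several are known best from neurons. Embryonic stem cells divide rapidly with short gap phases.

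Libraries held between 11242568 and 17843650 estimated counts. Tested genes numbered 15097, and 12399 of them passed the test at an adjusted p of 0.05 (82.1%, edgeR quasi-likelihood test with Benjamini-Hochberg adjustment over all genes tested). Values are given as CPM, counts scaled to 1000000 per library and adjusted between libraries by edgeR's TMM factors, with no correction for length, and changes as log2 of day 10 over day 0 with the standard error (SE) of the fit. The median log2 change over all genes tested was 0.06. The day labels matched their defining markers: all 6 pluripotency markers (Pou5f1, Nanog, Sox2, Klf4, Zfp42, Esrrb) fell, with a summed level of 1769 to 2079 CPM at day 0 and 164 to 216 CPM at day 10. Klf4 fell only slightly (log2 -0.19, edgeR quasi-likelihood test, adjusted p = 0.0224). At 145.0, 160.8, 173.4 and 149.5 CPM, it made up most of the day 10 sum. Summed cardiac markers went from 23.5 to 34.1 CPM at day 0 to 731 to 1292 CPM at day 10, fibroblast markers from 117 to 133 CPM to 5139 to 8901 CPM, endothelial markers from 40.3 to 44.2 CPM to 403 to 492 CPM, and blood markers from 0.327 to 0.922 CPM, with 3 of 5 genes at 0, to 81.9 to 138 CPM. Of 5 epithelial markers, Krt8, Krt18 and Cldn6 rose while Cdh1 and Epcam fell, and their sum was 645 to 710 CPM at day 0 and 311 to 506 CPM at day 10.

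Of the 38 motors, 36 passed the filter on low counts and were tested. At day 10, 14 were higher and 15 were lower, beside 42.7% higher and 39.4% lower among all genes tested, and 7 did not pass. Kif2b, a mitotic motor, had 0 counts in all 8 libraries. Kif28, a motor of little settled function, had 41 counts over the day 0 libraries and 12 over the day 10 libraries and was not tested. Against a stricter test for a change of more than 2-fold, 7 motors were higher and 9 were lower, where 24.1% and 17.3% of all genes were.

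**Figure D1:**
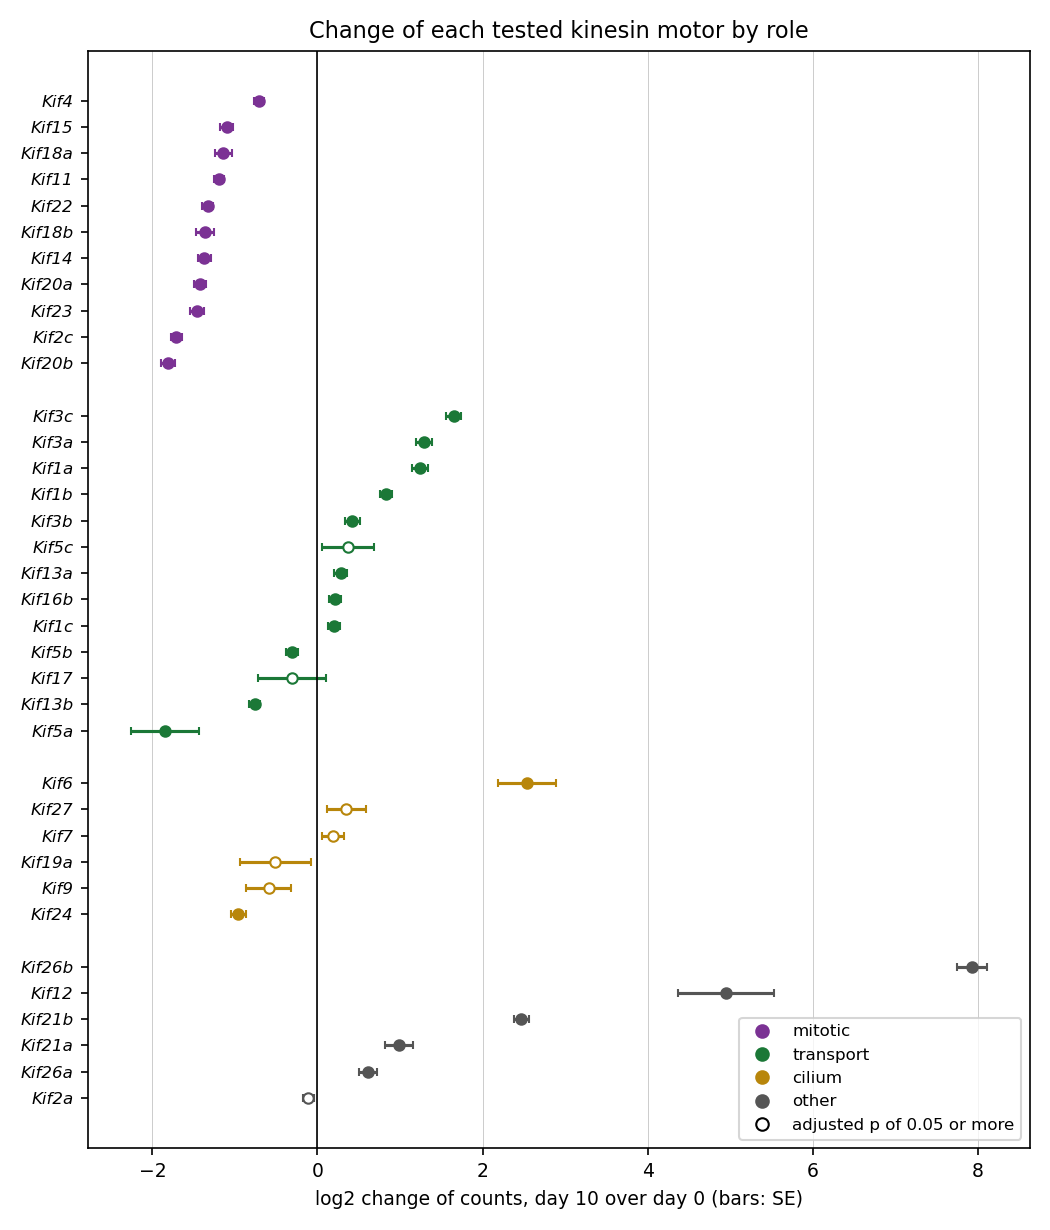
Log2 change of counts, day 10 over day 0, for the 36 tested kinesin motors ordered within each role, with bars for the SE of the edgeR fit and open points where the adjusted p was 0.05 or more. All 11 mitotic motors lie left of 0, between -1.81 and -0.71, while cargo-transport motors lie on both sides, from -1.85 to 1.65, and Kif26b lies farthest right at 7.93.

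Mitotic kinesins fell. All 11 tested members were lower at day 10, with log2 changes between -1.81 and -0.71 and a median of -1.36. Of them, 8 passed the test for a fall of more than 2-fold. Among all genes tested, 39.4% were lower and 17.3% passed that test for a fall. For every one of the 11, all 4 day 10 libraries lay below all 4 day 0 libraries, which held for 37.2% of all genes tested. The 3 members that fell without passing the 2-fold test were Kif4, Kif15 and Kif18a. These counts depend on the list, which was chosen with earlier results of these data known. Kif2a, which also acts at spindle poles, was sorted among the other kinesins and did not pass (log2 -0.11 ± 0.07).

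The spindle motor Kif11, which slides antiparallel microtubules apart to separate the poles, measured 428, 468, 429 and 424 CPM in the day 0 libraries and 181, 200, 192 and 193 CPM in the day 10 libraries. Day 0 library 2 was the highest, and the groups did not overlap. Its log2 change was -1.19 ± 0.06 (SE, n = 4 and 4, edgeR quasi-likelihood test, adjusted p = 2.22e-10). Kif15, which can back up Kif11 at the spindle, went from 228 ± 24.1 to 106 ± 8.81 CPM (SD, n = 4 each), a log2 change of -1.10 ± 0.08. Of these motors of bipolar spindle assembly, Kif11 passed the test for a fall of more than 2-fold and Kif15 did not.

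The motor-domain microtubule depolymeriser Kif2c, which corrects faulty kinetochore attachments, measured 114, 128, 124 and 125 CPM at day 0 and 36.9, 39.9, 38.5 and 35.1 CPM at day 10. Its libraries were close within each day, and the log2 change was -1.71 ± 0.07 (edgeR quasi-likelihood test, adjusted p = 2.89e-11). Kif18a, which damps chromosome oscillations at the metaphase plate, went from 120 ± 7.44 to 54.7 ± 8.28 CPM (log2 -1.14 ± 0.10). Its relative Kif18b, which acts at astral microtubule ends, went from 42.1 ± 4.67 to 16.4 ± 2.16 CPM (log2 -1.36 ± 0.11).

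The chromokinesins bind chromosome arms and push them towards the metaphase plate. Kif22 measured 95.9, 94.4, 104 and 97 CPM at day 0 and 42, 39, 36.9 and 37.3 CPM at day 10, a log2 change of -1.33 ± 0.07 (edgeR quasi-likelihood test, adjusted p = 3.7e-10). Kif4, which also organises the central spindle, measured 124, 142.3, 126.6 and 127 CPM at day 0 and 80.4, 82.4, 78.2 and 77.4 CPM at day 10. The log2 change of Kif4 was -0.71 ± 0.06 (edgeR quasi-likelihood test, adjusted p = 1.39e-07), with groups that did not overlap. This was the smallest fall of the mitotic motors on uncorrected counts, but with the length dependence removed Kif4 was at -1.38, and Kif23 (-0.99), Kif22 (-1.33) and Kif15 (-1.37) fell less. The Kif23 value used an average transcript length of 1097 nucleotides. Most Kif23 TPM lay on Kif23-211, a retained-intron model of 579 nucleotides, whereas the coding Kif23-201 has 3398. The annotation also holds pseudogene copies of Kif4 and Kif22, not analysed here, with which their reads could be shared.

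Motors of the central spindle and cytokinesis fell as well. Kif20b, which helps to complete abscission, measured 404, 496, 412 and 412 CPM at day 0 and 114.1, 122.9, 119.1 and 136.9 CPM at day 10. Its log2 change was -1.81 ± 0.08 (edgeR quasi-likelihood test, adjusted p = 7.58e-11), and day 0 library 2 stood above the other day 0 libraries. This was the largest fall of a mitotic motor on uncorrected counts, but on log2(TPM + 1) Kif2c (-1.27) and Kif20a (-1.15) fell more than Kif20b (-1.13). Kif23, the motor subunit of centralspindlin, measured 264, 337, 295 and 330 CPM at day 0 and 103, 113, 118 and 110 CPM at day 10 (log2 -1.46 ± 0.08). Kif20a, which brings the chromosomal passenger complex to the midzone, went from 192 ± 5.37 to 71.6 ± 5.06 CPM (log2 -1.42 ± 0.07), and Kif14, a partner of citron kinase in cytokinesis, from 128 ± 13.8 to 49.5 ± 2.7 CPM (log2 -1.37 ± 0.08). Day 0 and day 10 libraries did not overlap for any of these 4 genes.

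**Figure D2:**
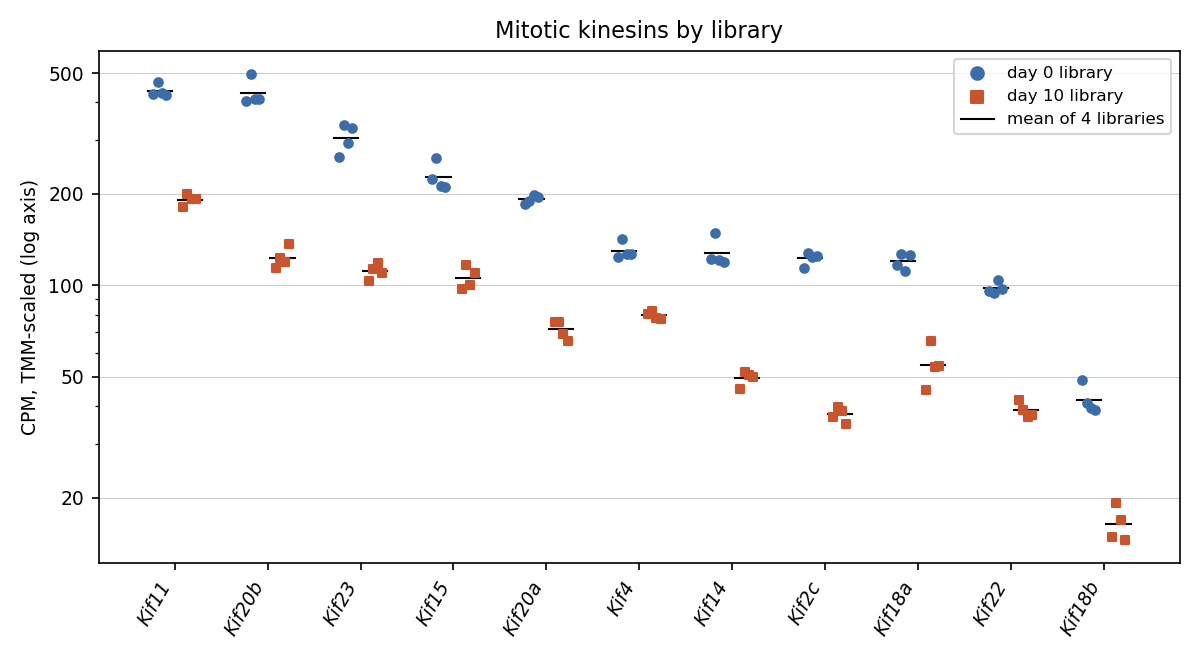
TMM-scaled CPM on a log axis for the 11 tested mitotic kinesins, ordered by day 0 level. Circles are the 4 day 0 libraries, squares the 4 day 10 libraries and lines their means, and for each gene every square lies below every circle.

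Proliferation markers moved with these motors. All 6 (Mki67, Top2a, Pcna, Mcm2, Ccnb1, Cdk1) fell, with a summed level of 4100 to 4519 CPM at day 0 and 1880 to 1964 CPM at day 10, and their part in the fall of the mitotic kinesins was not tested. In these bulk libraries, fewer cells of a type and less RNA per cell cannot be told apart. Direction and call held for all 11 motors in each of the 16 alternative analyses. The median changed in size with the unit: it was -0.83 for log2(TPM + 1), where TPM is the abundance unit that corrects for length and the median of all genes was 0.40, and -1.61 after the dependence of the ratios on transcript length had been removed.

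Spindle components that are not kinesins of the Kif series moved in the same direction. Of 18 tested spindle genes, 17 were lower and 1 was higher, with a median log2 change of -1.57, where 39.4% of all genes were lower. Tpx2, which nucleates spindle microtubules and activates Aurora A, went from 346 ± 15.3 to 113 ± 3.64 CPM (log2 -1.61 ± 0.06). Aurka, the Aurora A kinase itself, went from 126 ± 8.45 to 30.3 ± 2.4 CPM (log2 -2.05 ± 0.08). The exception was Numa1, which anchors dynein at spindle poles and rose from 167 ± 13.9 to 218 ± 5.89 CPM (log2 0.38 ± 0.07, edgeR quasi-likelihood test, adjusted p = 9.86e-05). Kifc1, a minus-end-directed kinesin that focuses spindle poles, went from 78.3 ± 6.2 to 27.2 ± 1.77 CPM (log2 -1.52 ± 0.08), with the reservation that reads can be shared with the near-identical Kifc5b.

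Because the mitotic motors moved together, their promoters were read from the RefSeq promoter table (assembly GRCm38.p6, 250 bases before to 50 after each start, 300 bases). Promoters were found for 31 of the 38 motors, 11 of them mitotic, including the unexpressed Kif2b. Many late cell cycle genes carry the cell cycle genes homology region, written TTTGAA or TTCGAA, often near a CCAAT box, which NF-Y binds. Each motif was searched on both strands, so TTCAAA counts as TTTGAA and ATTGG as CCAAT. The table held 32851 promoters for 27025 genes, and a gene counted if any of its promoters held the motif. The first of these, TTTGAA, was present for 9 of the 11 mitotic genes (81.8%), 1 of 10 cargo-transport genes, 1 of 5 cilium genes and 1 of 5 others, beside 20.2% of the 27025 genes in the table. CCAAT was present for 7 of 11 mitotic genes (63.6%) and 3 of 10 transport genes, beside 41.1% of all genes. Either TTTGAA or TTCGAA together with CCAAT in 1 promoter was found for 6 of 11 mitotic genes (54.5%) and for 0 of 10 transport genes, beside 8.61% of all genes. TTCGAA was present for 0 of 11 mitotic genes, where 1.8% of all genes had it. The mitotic genes without TTTGAA were Kif18a and Kif2b. A match describes letters in this window and is neither a shown binding site nor a cause.

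The promoters of the 3 mitotic motors with the smallest p, apart from Kif20a, whose promoter is not used here, are shown, with both motifs in capitals on whichever strand they lie. Kif2c at chr4:117178723-117179022, minus strand holds TTCAAA 103 bases before the start, and this RefSeq start lies inside the GENCODE gene, downstream of its outer end. Kif20b at chr19:34922108-34922407, plus strand holds TTTGAA 7 and 13 bases after the start, side by side. Kif11 at chr19:37376132-37376431, plus strand holds ATTGG 45 bases and TTCAAA 19 bases before the start.
Kif2c: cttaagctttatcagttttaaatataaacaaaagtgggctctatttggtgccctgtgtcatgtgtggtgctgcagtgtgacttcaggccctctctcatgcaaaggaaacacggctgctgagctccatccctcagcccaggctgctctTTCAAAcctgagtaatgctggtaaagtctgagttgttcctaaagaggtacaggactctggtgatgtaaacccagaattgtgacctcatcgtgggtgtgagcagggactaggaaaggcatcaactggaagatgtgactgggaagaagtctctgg
Kif20b: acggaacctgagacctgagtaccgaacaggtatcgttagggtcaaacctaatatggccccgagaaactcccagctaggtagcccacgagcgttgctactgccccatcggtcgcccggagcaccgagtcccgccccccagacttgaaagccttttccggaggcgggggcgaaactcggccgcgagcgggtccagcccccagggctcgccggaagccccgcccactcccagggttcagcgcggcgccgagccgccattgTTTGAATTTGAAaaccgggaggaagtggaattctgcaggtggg
Kif11: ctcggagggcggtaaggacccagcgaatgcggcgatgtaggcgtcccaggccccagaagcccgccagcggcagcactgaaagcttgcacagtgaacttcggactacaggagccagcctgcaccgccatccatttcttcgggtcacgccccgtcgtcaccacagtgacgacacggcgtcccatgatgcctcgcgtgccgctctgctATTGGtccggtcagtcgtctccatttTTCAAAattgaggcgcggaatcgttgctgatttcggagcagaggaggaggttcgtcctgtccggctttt

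Cargo-transport kinesins moved in both directions. Of 13 members, all tested, 8 were higher, 3 were lower and 2 did not pass, with a median log2 change of 0.28. The shares over all genes tested were 42.7% higher and 39.4% lower. Only Kif3c, Kif3a and Kif1a passed the test for a rise of more than 2-fold, and only Kif5a that for a fall. Over all genes tested, 24.1% passed for a rise and 17.3% for a fall. The transport count depends on the treatment of length more than the mitotic count does: with the length dependence removed, 4 were higher and 6 were lower with a median of -0.36, and on log2(TPM + 1), 8 were higher and 2 lower with a median of 0.73, against an all-gene median of 0.40.

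The heterotrimeric kinesin, which pairs Kif3a with Kif3b or Kif3c and drives anterograde transport in cilia and axons, was higher in each of its motors. Kif3a measured 25.8, 22.2, 19.4 and 18.7 CPM at day 0 and 49.9, 53.8, 50.8 and 55.5 CPM at day 10 (log2 1.29 ± 0.10, edgeR quasi-likelihood test, adjusted p = 3.25e-08). Kif3c measured 11.2, 12, 11.6 and 12.3 CPM at day 0 and 38.1, 38, 37.5 and 35.1 CPM at day 10. Libraries of a day lay close together for Kif3c, and its log2 change was 1.65 ± 0.09 (edgeR quasi-likelihood test, adjusted p = 4.94e-10). With the length dependence removed, the rises were 1.15 for Kif3a and 1.02 for Kif3c. Kif3b rose less, from 27.4 ± 2.4 to 36.6 ± 1.64 CPM (log2 0.42 ± 0.09), and its direction turned to -0.36 with the length dependence removed. Kifap3, the accessory subunit of this motor, went from 119.5 ± 6.95 to 152 ± 3.6 CPM (log2 0.35 ± 0.06).

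The Kif3c promoter (chr12:3364882-3365181, plus strand) is shown as the transport counterpart of the mitotic promoters. None of the searched letters is in this window.
Kif3c: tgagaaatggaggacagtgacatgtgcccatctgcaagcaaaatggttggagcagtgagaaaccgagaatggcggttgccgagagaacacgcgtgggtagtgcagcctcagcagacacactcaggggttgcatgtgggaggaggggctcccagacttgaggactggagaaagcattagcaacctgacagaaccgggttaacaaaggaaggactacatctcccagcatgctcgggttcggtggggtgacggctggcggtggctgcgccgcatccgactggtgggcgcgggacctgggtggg

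Motors of the Kif1 group carry vesicle precursors and mitochondria. Kif1a, which carries synaptic vesicle precursors, measured 29.3, 32.2, 28.2 and 28.2 CPM at day 0 and 66.2, 83.6, 61.2 and 67.8 CPM at day 10, with day 10 library 2 the highest. Its log2 change was 1.24 ± 0.10 (edgeR quasi-likelihood test, adjusted p = 3.33e-08) and 0.40 with the length dependence removed. Kif1b measured 126, 137, 109 and 118.5 CPM at day 0 and 225, 214, 209 and 225 CPM at day 10 (log2 0.83 ± 0.07, and 0.16 with the length dependence removed). Kif1c, a motor of Golgi and endoplasmic reticulum traffic, measured 72.3, 65.7, 62.2 and 64.9 CPM at day 0 and 74.8, 74.2, 78.2 and 76.5 CPM at day 10. Its small rise (log2 0.20 ± 0.07, edgeR quasi-likelihood test, adjusted p = 0.0147) turned to -0.50 with the length dependence removed. The Kif1c call was also lost without day 0 library 3 (adjusted p = 0.0638), day 0 library 4 (adjusted p = 0.0526), day 10 library 3 (adjusted p = 0.0594) or day 10 library 4 (adjusted p = 0.0557).

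Conventional kinesin heavy chains, the motors that pair with kinesin light chains, gave 3 different results. Kif5b, the broadly expressed heavy chain, measured 658, 766, 691 and 690 CPM at day 0 and 509, 570, 586 and 592 CPM at day 10. The groups did not overlap, and the log2 change was -0.31 ± 0.07 (edgeR quasi-likelihood test, adjusted p = 0.000702), yet on log2(TPM + 1) it was 0.06 (limma-trend, adjusted p = 0.557). The all-gene median on that scale was 0.40, and less that median Kif5b was at -0.33. Kif5a, a heavy chain known mainly from neurons, measured 19.1, 21, 19.2 and 14.9 CPM at day 0 and 2.87, 10.7, 3.8 and 3.03 CPM at day 10. Day 10 library 2 stood above the other day 10 libraries, and the log2 change was -1.85 ± 0.41 (edgeR quasi-likelihood test, adjusted p = 0.00251), or -2.52 without that library (adjusted p = 2.92e-10). Kif5c, the other neuronal heavy chain, measured 20.6, 22.5, 18.1 and 18.6 CPM at day 0 and 18.3, 46.2, 19.2 and 18.9 CPM at day 10, so that the groups overlapped. Its log2 change was 0.37 ± 0.32 (edgeR quasi-likelihood test, adjusted p = 0.308), and -0.09 without day 10 library 2.

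Neuronal markers stood apart in the same day 10 library. The 9 neuronal markers (Tubb3, Map2, Snap25, Syp, Dcx, Elavl3, Rbfox3, Stmn2, Nefl) summed to 289 to 321 CPM at day 0, and at day 10 to 209 CPM in library 2 and 78.5 to 84.4 CPM in the other libraries. Of the 8 tested, Map2, Snap25 and Dcx were higher at day 10. The 3 lower were Stmn2 (log2 -5.61), Elavl3 (log2 -1.98) and Nefl (log2 -1.38). Stmn2, at 157 to 193 CPM, made up most of the day 0 sum. None of the 9 was at 0 in a whole day. Library 2 had the highest day 10 value of each of the 9 markers. Map2 was at 81.9 CPM beside 24.2 to 33 CPM, and Dcx at 30.7 CPM beside 8.35 to 10.7 CPM. The part of the neuronal markers in the Kif5a and Kif5c values was not tested.

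**Figure D3:**
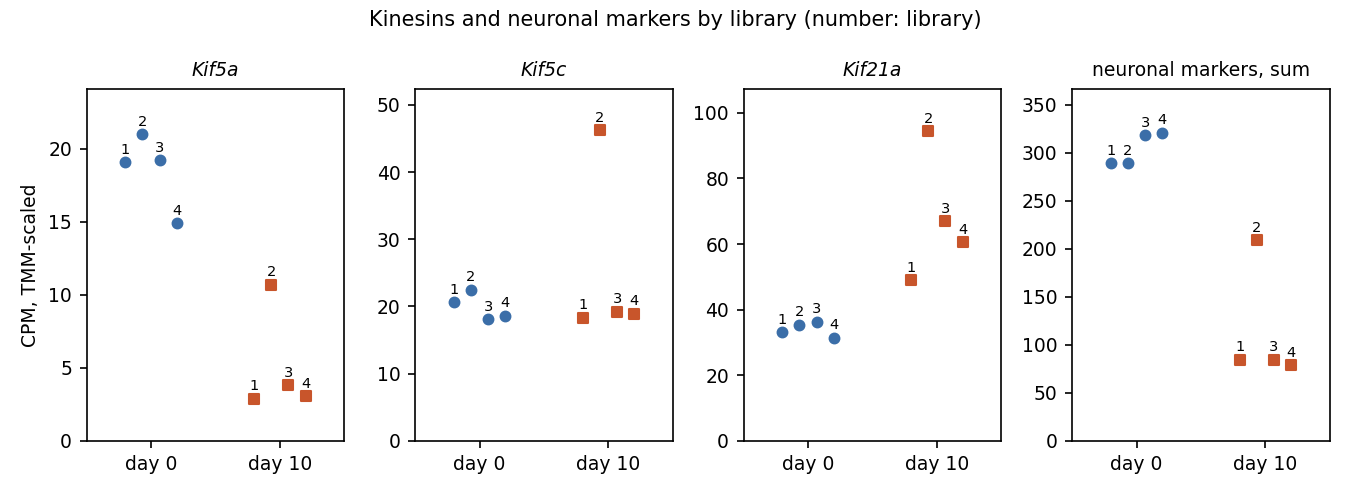
TMM-scaled CPM of Kif5a, Kif5c, Kif21a and the sum of the 9 neuronal markers in each library, with the library number over each point (circles day 0, squares day 10). Day 10 library 2 is the highest day 10 library in all 4 panels, at 10.7, 46.2, 94.4 and 209 CPM.

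The remaining transport motors changed by less than 2-fold. Kif13b, a carrier of membrane scaffold proteins, fell from 115 ± 7.36 to 68 ± 2.27 CPM (log2 -0.76 ± 0.07, edgeR quasi-likelihood test, adjusted p = 9.13e-08). Kif13a, a recycling endosome motor, measured 79.8 to 88.2 CPM at day 0 and 93.4 to 116 CPM at day 10 (log2 0.28 ± 0.08). With the length dependence removed, the Kif13a change was 0.05 (adjusted p = 0.552). Kif16b, an early endosome motor, measured 34.2 to 36.1 CPM at day 0 and 38.3 to 42 CPM at day 10 (log2 0.21 ± 0.07, edgeR quasi-likelihood test, adjusted p = 0.0184). Its direction turned to -0.44 with the length dependence removed, and the call was lost without the low-count filter (adjusted p = 0.0601) or without day 0 library 4 (0.0671), day 10 library 1 (0.0765), day 10 library 3 (0.0601) or day 10 library 4 (0.0777). The antisense gene Kif16bos had 0 counts in all libraries. Kif17, a dendritic and ciliary motor, was near the detection limit at 0.821 ± 0.347 and 0.667 ± 0.246 CPM, and its log2 change of -0.31 ± 0.41 did not pass (adjusted p = 0.49).

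The list of other kinesin genes held 8 genes: the light chains, Kifap3 and the Kifc motors. Of these, 4 were higher, 2 were lower (Klc3 and the spindle motor Kifc1) and 2 did not pass, with a median log2 change of 0.38. Over all genes tested, 42.7% were higher and 39.4% lower. The light chain Klc4 went from 6 ± 0.78 to 12 ± 1.53 CPM (log2 1.0 ± 0.15), while Klc3 went from 7.44 ± 0.727 to 2.23 ± 0.303 CPM (log2 -1.74 ± 0.19). Of 20 cargo adaptors, 9 were higher, 6 were lower and 5 did not pass (median 0.10), which is near the shares over all genes tested (42.7% higher, 39.4% lower). Spag9, a JNK-interacting scaffold that binds kinesin light chains, rose from 91.4 ± 10.1 to 321 ± 9.47 CPM (log2 1.81 ± 0.08), and Kidins220, a membrane scaffold carried by conventional kinesin, from 78.3 ± 4.34 to 255 ± 10.1 CPM (log2 1.70 ± 0.06). Hap1, a huntingtin-associated adaptor, fell from 61.1 ± 4.39 to 10.9 ± 3.06 CPM (log2 -2.48 ± 0.16), and Bloc1s2, a subunit of complexes that link lysosomes to kinesin, from 40.5 ± 5.7 to 15.8 ± 1.52 CPM (log2 -1.37 ± 0.12).

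Dynein with dynactin moves cargo the opposite way. The list of its genes also held the adaptors and regulators Bicd1, Bicd2, Nde1, Ndel1 and Pafah1b1 and the ciliary dynein genes Dync2h1 and Dync2li1. It had 15 of 24 genes higher and 6 lower (median 0.34), beside 42.7% higher and 39.4% lower among all genes tested. Dctn4, a dynactin subunit, rose from 63.4 ± 3.63 to 134 ± 7.93 CPM (log2 1.08 ± 0.07). The light chain Dynlt3 rose from 24.1 ± 2.53 to 60.5 ± 4.34 CPM (log2 1.33 ± 0.09). The light intermediate chain Dync1li1 fell from 134 ± 10.7 to 54.3 ± 2.94 CPM (log2 -1.30 ± 0.07), and the light chain Dynll1 from 132 ± 19.7 to 59.2 ± 5.74 CPM (log2 -1.16 ± 0.11). Dynein chains thus moved in opposite directions in these libraries.

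Among the 6 cilium kinesins, 1 was higher, 1 was lower and 4 did not pass, beside 42.7% higher and 39.4% lower among all genes tested. Kif6, a kinesin of motile cilia, measured 0.276, 0.348, 0.758 and 0.982 CPM at day 0 (3, 5, 9 and 15 counts) and 4.05, 3.33, 3.07 and 3.76 CPM at day 10 (55, 54, 42 and 67 counts). All day 10 libraries lay above all day 0 libraries, which held for 40.8% of all genes tested, and the log2 change was 2.54 ± 0.35 (edgeR quasi-likelihood test, adjusted p = 9.7e-06). Of the day 10 Kif6 counts, 146.0 were assigned to a retained-intron model of 1676 nucleotides and 28.2 to another of 765. The protein-coding model of 3528 nucleotides had 5.41 counts at day 0 and 35.2 at day 10, too few to test. At day 10 these models held 56.9, 30.0 and 7.03% of Kif6 TPM. Kif24, which restrains cilium assembly at the mother centriole, measured 42.9, 42.7, 35.8 and 40.9 CPM at day 0 and 21.5, 20.8, 19.6 and 21.8 CPM at day 10 (log2 -0.96 ± 0.09, edgeR quasi-likelihood test, adjusted p = 1.96e-07). The Hedgehog pathway kinesin Kif7 was at 9.19 ± 0.498 and 10.5 ± 1.31 CPM (log2 0.19 ± 0.13, adjusted p = 0.212). The sign of Kif7 depended on the treatment of length: -0.47 with the length dependence removed (adjusted p = 0.00572) and 0.48 on log2(TPM + 1) (limma-trend, adjusted p = 0.00594). Less the all-gene median of 0.40 on log2(TPM + 1), Kif7 was at 0.08.

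The other cilium kinesins were expressed at low levels. Kif27, a relative of Kif7, had 2.37 ± 0.277 CPM at day 0 and 3.03 ± 0.682 CPM at day 10 (log2 0.35 ± 0.24, adjusted p = 0.2), and the sign turned to -0.31 with the length dependence removed (adjusted p = 0.235). On log2(TPM + 1) Kif27 passed as higher (0.42, limma-trend, adjusted p = 0.0137), but less the all-gene median of 0.40 it was at 0.03. Kif9, a motile cilium kinesin, was at 2.09 ± 0.34 and 1.40 ± 0.221 CPM (log2 -0.59 ± 0.27, adjusted p = 0.0564), and passed without day 0 library 3 (-0.69, adjusted p = 0.0461) or with the length dependence removed (-0.82, adjusted p = 0.0108). Kif19a, which limits the length of motile cilia, was at 0.898 ± 0.338 and 0.626 ± 0.311 CPM (log2 -0.51 ± 0.43, adjusted p = 0.276). Markers of multiciliated cells summed to 6.45 to 10.1 CPM at day 0 and 8.98 to 10.9 CPM at day 10. Of the 3 tested, Ccdc39 and Dnah9 were higher and Foxj1 did not pass (log2 -0.49), and the other 5 of 8 were too low to test. Ccdc39 alone, at 5.99 to 6.89 CPM, made up most of the day 10 sum. The part of these markers in the cilium kinesin values was not tested. Of 20 genes of the intraflagellar transport trains, which kinesin carries along the cilium, 11 were higher, 5 were lower and 4 did not pass (median 0.26), beside the same 42.7% and 39.4% over all genes. Ift122 (log2 1.06 ± 0.10) and Wdr19 (log2 0.89 ± 0.09) rose, whereas Wdr35 (log2 -0.89 ± 0.08) and Traf3ip1 (log2 -0.62 ± 0.12) fell.

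The largest change of any kinesin was that of Kif26b, an atypical kinesin whose motor domain is described as inactive and that acts in non-canonical Wnt signalling and kidney development (GRCm38 chromosome 1, 178529125 to 178939200). It measured 0.645, 0.766, 0.758 and 0.72 CPM at day 0, from 38 counts in all, and 214.5, 142.7, 166.6 and 191.5 CPM at day 10, from 10924 counts. The groups lay far apart, and the log2 change was 7.93 ± 0.18 (edgeR quasi-likelihood test, adjusted p = 4.68e-13), which ranked 274 of the 15097 genes from the highest. On log2(TPM + 1) the change was 5.02, a scale that understates changes of low genes. Its relative Kif26a, which restrains GDNF signalling in enteric neurons, measured 11.4 to 14.2 CPM at day 0 and 18.6 to 21.2 CPM at day 10 (log2 0.61 ± 0.11, adjusted p = 0.000125), and -0.25 with the length dependence removed (adjusted p = 0.0607).

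The Kif26b promoter (chr1:178528875-178529174, plus strand) holds ATTGG 73 bases and TTTGAA 9 bases before the start, shown in capitals. It thus has the pair of letters that 6 of the mitotic genes, and 8.61% of all genes in the promoter table, have in a promoter. The part of these letters in the level of Kif26b was not tested.
Kif26b: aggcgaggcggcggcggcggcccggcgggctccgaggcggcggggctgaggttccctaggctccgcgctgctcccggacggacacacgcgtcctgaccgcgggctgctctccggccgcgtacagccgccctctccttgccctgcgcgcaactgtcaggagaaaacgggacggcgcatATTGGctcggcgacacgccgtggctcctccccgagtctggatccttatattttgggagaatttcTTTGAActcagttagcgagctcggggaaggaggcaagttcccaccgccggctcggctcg

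Other kinesins that act on microtubule dynamics also differed. Kif21b, which slows microtubule growth and is known from neurons and lymphocytes, measured 20, 22.2, 19.6 and 18.5 CPM at day 0 and 127, 114, 97.5 and 107 CPM at day 10 (log2 2.47 ± 0.09, edgeR quasi-likelihood test, adjusted p = 1.5e-11). Its relative Kif21a, a cortical regulator of microtubule growth, measured 33.2, 35.4, 36.3 and 31.4 CPM at day 0 and 48.9, 94.4, 67 and 60.5 CPM at day 10. Day 10 library 2 was again the highest for Kif21a, and the log2 change of 0.99 ± 0.17 (edgeR quasi-likelihood test, adjusted p = 0.000338) was 0.78 without it and 0.27 with the length dependence removed (adjusted p = 0.13). The depolymeriser Kif2a, which acts in neurons and at spindle poles, was at 193 ± 10.2 and 179 ± 13.3 CPM, and a log2 change of -0.11 ± 0.07 did not pass (adjusted p = 0.147). It passed as lower without day 10 library 4 (-0.18, adjusted p = 0.0197), with the average length offset (-0.20, adjusted p = 0.0326) and with the length dependence removed (-0.35, adjusted p = 0.000224). On log2(TPM + 1) it was 0.19 (limma-trend, adjusted p = 0.0595), or -0.21 less the all-gene median of 0.40. The difference of Kif2a from its mitotic relative Kif2c was not tested.

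Kif12, a kinesin known from kidney and liver epithelia, had 0, 0.0696, 0.0842 and 0 CPM at day 0 and 1.25, 1.73, 1.31 and 1.46 CPM at day 10. These are 2 counts against 89 counts, or a ratio of 38 after correction for depth, and counting error alone puts that ratio between 10.2 and 319 (95% interval). Of the day 10 counts, 66.3 were assigned to the retained-intron model Kif12-203. The coding models Kif12-201 and Kif12-205 had 19.8 and 2.97. Kif1bp, the binding protein of KIF1 motors, had means of 27.9 ± 1.68 and 27.6 ± 1.43 CPM, and its log2 change of -0.02 ± 0.09 did not pass (adjusted p = 0.864). The sign followed the scale, at 0.53 on log2(TPM + 1), where all genes had a median of 0.40.

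**Figure D4:**
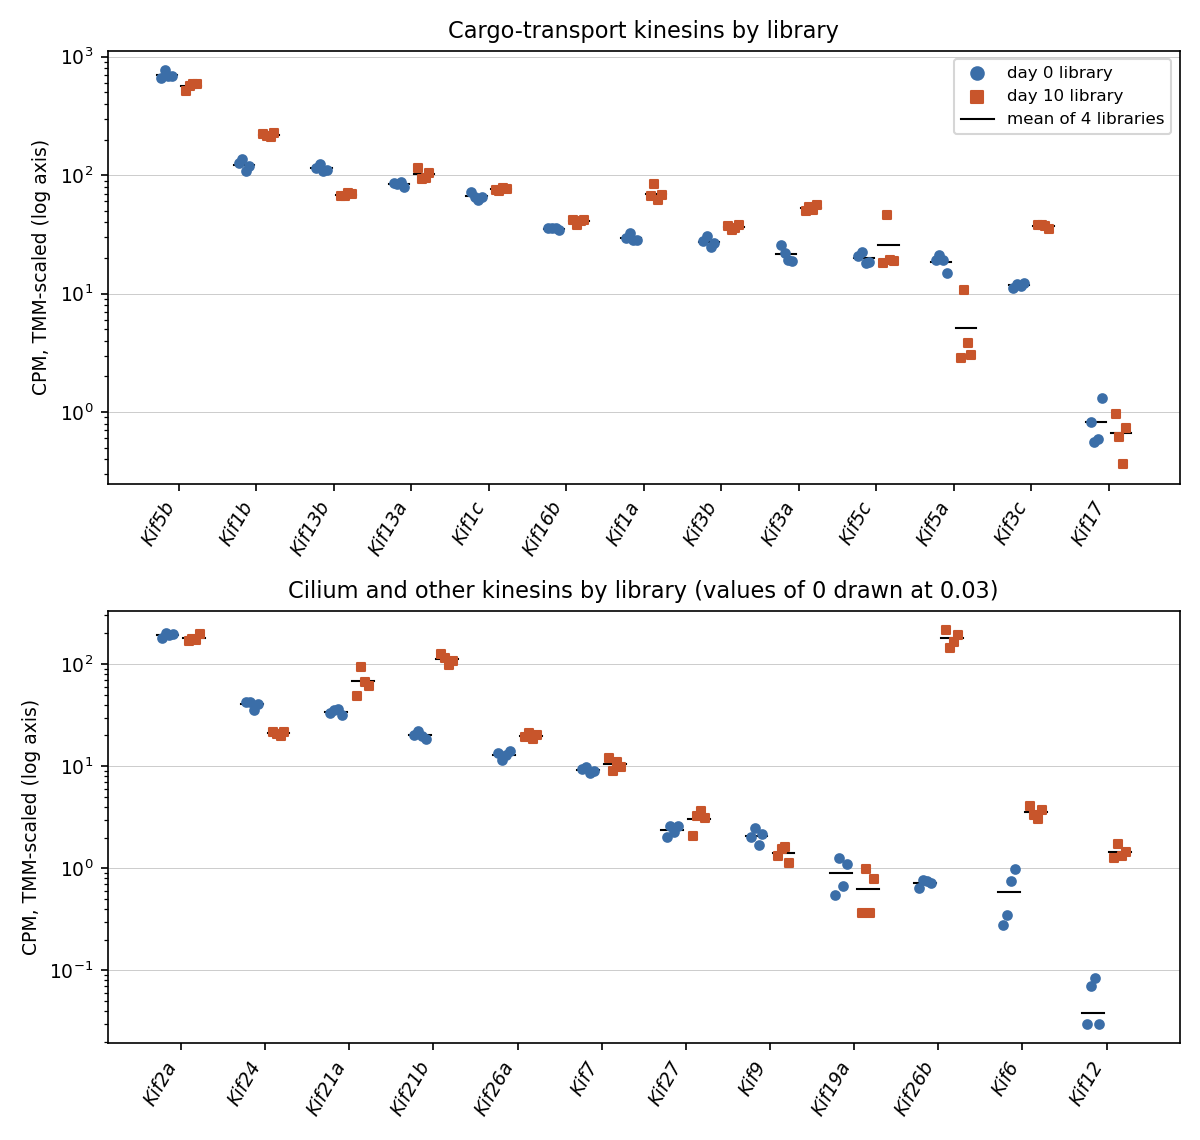
TMM-scaled CPM on a log axis for the 13 cargo-transport kinesins (upper panel) and the 12 tested cilium and other kinesins (lower panel), ordered by day 0 level. Circles are day 0 libraries, squares day 10 libraries and lines means of 4 libraries. Day 10 library 2 stands apart for Kif5c at 46.2 CPM, and Kif26b rises from below 1 CPM to 142.7 CPM or more.

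Levels can be compared between genes on the length-corrected TPM scale. The summed TPM of mitotic kinesins was 1343 ± 116 at day 0 and 738 ± 58.1 at day 10 (SD, n = 4 each), and that of transport kinesins was 587 ± 81.4 and 734 ± 33.7. Cilium kinesins summed to 33.6 ± 3.3 and 32.5 ± 0.816 TPM, and other kinesins to 132 ± 5.77 and 232 ± 14.5 TPM. Mitotic kinesins held 62.6, 63.2, 64.8 and 65.9% of the summed TPM of the 38 motors in the day 0 libraries and 42.4, 44.2, 42.5 and 40.7% in the day 10 libraries. The day 10 shares all lay below the day 0 shares, with means of 64.1% ± 1.49 and 42.5% ± 1.41. Transport kinesins held 27.9% ± 1.58 and 42.3% ± 1.12, and other kinesins 6.34% ± 0.298 and 13.4% ± 0.745. Kif2a, at 114 ± 6.66 and 130 ± 11.5 TPM, was counted among the other kinesins here. No test was made on these sums over genes chosen with earlier results of these data known.

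**Figure D5:**
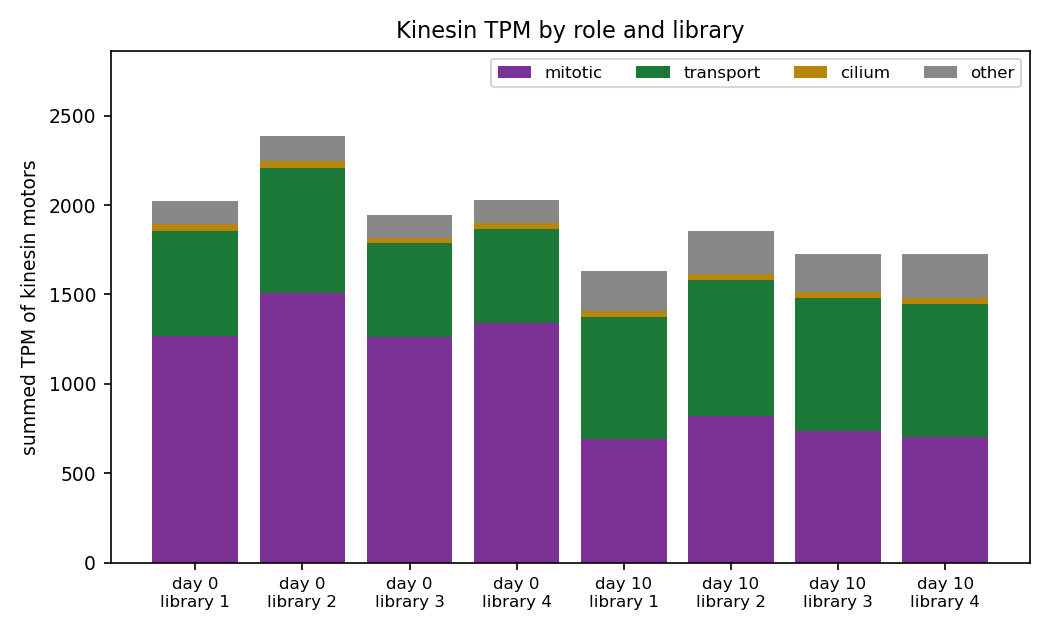
Summed TPM of kinesin motors in each library, stacked by role from 0. Mitotic kinesins (purple) go from 1260 to 1508 TPM at day 0 to 693 to 821 TPM at day 10, while transport kinesins (green) go from 528 to 702 TPM to 684 to 759 TPM.

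By TPM, Kif23 ranked first at day 0 (488 ± 62.6 TPM) and Kif5b next (346 ± 40.1 TPM), followed by Kif11 (145 ± 11.4), Kif20b (141.8 ± 18.4) and Kif20a (125 ± 4.14). Kif11 and Kif20b did not differ beyond their spread. At day 10 Kif5b ranked first (361 ± 28.3 TPM), then Kif23 (273 ± 16.5), Kif2a (130 ± 11.5), Kif1b (88.4 ± 5.41) and Kif11 (86.3 ± 5.24), and Kif1b and Kif11 lay within their spread. The rank of Kif23 rested on short transcripts: models under 1000 nucleotides held 71.2% of its TPM at day 0 and 76.7% at day 10, chiefly Kif23-211, a retained-intron model of 579 nucleotides with 64.2% and 68.0%. Counting only transcripts of at least 1000 nucleotides, a choice made after seeing the data, Kif5b was first on both days (332 ± 37.9 and 339 ± 25.4 TPM). Kif11 then stood at 145 and 86.3 TPM, Kif23 at 140 and 63.5 TPM, and Kif2a moved from the fifth place (112 TPM) to the second (129 TPM). In that count mitotic kinesins held 58.1% of kinesin TPM at day 0 and 35.0% at day 10.

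The deposited tables are per transcript, so isoforms could be followed. Of the 240 kinesin transcripts, 23 were higher and 41 were lower at day 10, 57 were tested without passing and the rest had too few counts, beside 26.8% higher and 23.8% lower among all transcripts tested. A test of isoform usage, each transcript against the others of its gene, covered 116 kinesin transcripts and called 6 (5.17%, with 21 at an unadjusted p under 0.05), close to the 5.97% called among all transcripts in the usage test. The assignment error of the quantification is not in the deposited tables, so these calls count spread between libraries only.

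The Kif13a transcript Kif13a-207, a coding model of 3426 nucleotides, held 9.81, 13.1, 11.8 and 9.7% of Kif13a TPM at day 0 and 0% in all 4 day 10 libraries. Its 606 day 0 counts dropped to 0, which against a floor of 3 counts over the 4 day 10 libraries is at least 236.4-fold lower (edgeR usage test, adjusted p = 2.26e-15), although the gene itself was higher at day 10. Kif5c-205, a coding model of 729 nucleotides, held 29.6, 56.1, 33.9 and 35.7% of Kif5c TPM at day 0 and 0% at day 10. Its 76 counts against 0 put it at least 29.7-fold lower (edgeR usage test, adjusted p = 0.000723). Neither transcript was detected in any day 10 library at this depth.

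Calls for a further pair of isoforms depended on single libraries. Kif5a-202, which encodes as many codons (1027) as the main transcript Kif5a-201, held 28.4, 35.4, 25.1 and 38.6% of Kif5a TPM at day 0 and 14.1, 0, 0 and 0% at day 10 (edgeR usage test, adjusted p = 0.0247). This call was lost with a replicate block (adjusted p = 0.0725), and without day 0 library 1 (0.0623), 2 (0.0745), 3 (0.0594) or 4 (0.074) or day 10 library 2 (0.0747), 3 (0.09) or 4 (0.0695). Kif21a-204 held 0, 0, 4.35 and 0% of Kif21a TPM at day 0 and 4.31, 22.7, 22.3 and 12% at day 10 (edgeR usage test, adjusted p = 0.0117), with day 0 library 3 above day 10 library 1. That call was lost without day 0 library 1 (adjusted p = 0.0527) or day 10 library 2 (adjusted p = 0.0578).

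The other 2 usage calls fell outside the rule for naming transcripts, and they are named here after their values were seen. Kif1b-202, with 1770 codons, is a long form of the kind that carries synaptic vesicle precursors, and Kif1b-201, with 1150 codons, is a short form of the kind described as a mitochondrial motor. Kif1b-202 held 10.3% ± 2.11 of Kif1b TPM at day 0 and 5.42% ± 1.28 at day 10 (edgeR usage test, adjusted p = 0.00456), while Kif1b-201 held 23.0% ± 3.84 and 42.5% ± 4.14 without passing that test (adjusted p = 0.23). Another long form, Kif1b-203 with 1816 codons, did not fall in share (13.1% ± 3.43 and 15.9% ± 0.389, edgeR usage test, adjusted p = 0.935). The retained-intron model Kif1b-208 held 48.7% ± 9.38 and 30.1% ± 5.39, and its fall in share raises the shares of the others. A switch from long to short forms is therefore not shown. Kif2a-206 held 21.1, 19.2, 17 and 19.9% of Kif2a TPM at day 0 and 17.1, 11.7, 4.85 and 7.9% at day 10 (edgeR usage test, adjusted p = 0.018). The Kif2a-206 call was lost without day 0 library 1 (adjusted p = 0.0558), day 10 library 3 (0.187) or day 10 library 4 (0.0844).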

How the data were processed

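RNA was quantified by the authors with kallisto (version 1) per the submitters' processing notes, which also name DESeq2. Their reference is not given in the sources used here. Deposited tables hold estimated counts and TPM per transcript. Of 126126 transcripts, 117992 (93.55%) matched GENCODE M21 (GRCm38) by identifier, and the others held 1.15 to 1.23% of counts per library and were left out. Estimated counts were summed per gene, rounded and tested with edgeR 4.0.16 (filterByExpr, TMM, robust quasi-likelihood fit, day as the only term, glmTreat for changes over 2-fold), with Benjamini-Hochberg adjustment over all genes tested and a threshold of 0.05. The same was done per transcript, with diffSpliceDGE for usage. Scripts were tested on simulated data. There the usage test recovered 49.0% of 2-fold and 80.6% of 4-fold changes of a transcript, so a usage change that did not pass can still be real. Alternatives used limma 3.58.1, DESeq2 1.42.0, other scaling, filters and length corrections, a replicate block, and each library left out. Libraries of a day differed by more than sampling noise.

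All kinesins found by the symbol rule are described. From each partner list up to 2 called genes with the smallest p in each direction are named. Transcripts called in usage are named where the mean share moved by at least 10 percentage points. Promoters shown are those of the 3 mitotic and up to 3 other motors with the smallest p, chromosome 18 left out. Kif21b had no promoter in the table. The members and lists were chosen with earlier results of these data known.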

Additional observations from a re-analysis of the deposited data

Results flagged for a closer look

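In each group of 4 libraries the highest and the lowest value were compared with the nearest other library by Dixon's ratio, over 80 groups of values (chance flags about 1 in 20 groups). Day 0 library 2 stood above its group for 4 mitotic kinesins: Kif11 at 468 CPM where the other libraries had 424 to 429 CPM, Kif14 at 148 CPM beside 119.3 to 122.2 CPM, Kif20b at 496 CPM beside 404 to 412 CPM, and Kif4 at 142.3 CPM beside 124 to 127 CPM. Without that library all 11 tested mitotic kinesins were still called lower, with a median log2 change of -1.36.

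Day 10 library 2 stood above its group for Kif5a, at 10.7 CPM beside 2.87 to 3.8 CPM, and for Kif5c, at 46.2 CPM beside 18.3 to 19.2 CPM. The summed level of the neuronal markers stood apart in the same library, at 209 CPM beside 78.5 to 84.4 CPM.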

How the results depend on the processing

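Of 591 recomputed changes of 37 kinesin genes, 551 kept direction and call, 20 turned direction, 9 gained and 11 lost the call, and 24 genes held in every alternative run. With the length dependence removed, Kif16b (-0.44), Kif1c (-0.50), Kif26a (-0.25), Kif27 (-0.31), Kif3b (-0.36), Kif5c (-0.30) and Kif7 (-0.47) turned. With an average length offset, Kif1bp (0.16) and Kif5c (-0.51) turned. On log2(TPM + 1) and log2(TPM + 0.1), Kif1bp (0.53 and 0.55), Kif2a (0.19 and 0.19), Kif5b (0.06 and 0.06) and Kif5c (-0.19 and -0.21) turned against 0. The all-gene medians on these scales were 0.40 and 0.45. Less the median on log2(TPM + 1), Kif2a (-0.21) and Kif5b (-0.33) kept the sign of the main test. On the same footing Kif1bp (0.14) and Kif5c (-0.58) did not. Kif1bp also turned without day 0 library 3 or day 10 library 2, and Kif5c without day 10 library 2. The cause was not tested. Cilium kinesins called numbered 4, in place of 2, with the length dependence removed and on both TPM scales.

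The mitotic share of kinesin expression fell by 21.7 percentage points. By summed CPM the shares were 58.7% and 31.7% (-27.0 points), without Kif23 53.2% and 31.7%, and over transcripts of at least 1000 nucleotides 58.1% and 35.0% (-23.2 points). The last of these was chosen after seeing the data.

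Leaving out each library in turn gave 12187 to 12492 genes called, 6213 to 6422 over 2-fold, 11 mitotic, 9 to 11 transport, 2 to 3 cilium and 5 to 6 other kinesins, 19437 to 20416 transcripts and 1719 to 1997 usage calls. Kif1bp then ranged from -0.07 to 0.01 and Kif5c from -0.09 to 0.47. The mitotic share was 63.5 to 64.6% at day 0 and 41.9 to 43.0% at day 10, a difference of -22.2 to -21.1 points.

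Replicate numbers recur across days, and the labels do not say that they pair libraries. Deviations of same-numbered libraries correlated at 0.03 to 0.049, and each library correlated best with its own number (others -0.072 to 0.028). With a replicate block, 12298 genes were called in place of 12399, 6231 over 2-fold in place of 6245, 18048 transcripts in place of 20781 and 1742 usage calls in place of 2145.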
